A study of Mus musculus with 10 samples.

Results

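The genes described here are Tgfbr2, Acvr2b, Smad3 and Smad6, 4 genes of the TGF-beta and activin pathway, in mouse haematopoietic stem cells (HSCs). They were chosen by name and on having a row among the 2721 genes whose values could be placed, in a table of 41345 rows. Genes without such a row were left out by that rule. Per the labels, lineage-negative cells carrying c-Kit, Sca-1 and CD150 but not CD48 were sorted as HSCs and divided by whether Jam2, a junctional adhesion molecule, was on their surface. Both groups came from male wildtype C57BL/6 SJL mice, 5 animals in all according to the study's design text, and neither ages nor any pooling of animals is stated. RNA of each group was hybridised to 5 single-colour Affymetrix arrays, numbered 1, 2, 4, 5 and 6 in both groups. No label ties a replicate number to an animal, so p-values measure the spread between these arrays, which may be technical.

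TGF-beta and activin dimers are secreted proteins that bind a pair of type II and a pair of type I receptor kinases on the cell surface. The type I receptor then phosphorylates receptor-regulated Smad proteins, which join Smad4 and enter the nucleus, where they switch genes on or off. Inhibitory Smads are among the genes switched on and damp the signal. TGF-beta is known as a signal that holds HSCs in quiescence in the bone marrow niche.

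Gene names rest on an inference about the table. In the deposited table the row IDs did not go with their values, so the last 5562 IDs were set on the first 5562 rows in the same order. Of these IDs, 2872 had 1 gene symbol, 397 had several and 2293 had none. With this placement the 26 ribosomal protein rows, which every cell uses heavily, had a median log2 value of 12.09, against 5.90 on the rows where their IDs were deposited. The 139 olfactory receptor rows, whose genes serve smell and have no known use in blood, lay at a median of 3.64. When the placement was moved by 1 to 10 rows in either direction, the ribosomal median lay between 4.85 and 7.59. For the 3 ribosomal rows whose IDs lie between those of the 4 genes, it was 12.27 as placed and 5.05 to 9.02 at the other shifts. The median of all receptor rows was 3.60 at a shift of -1 row and 3.67 at a shift of 1 row, so it does not tell neighbouring placements apart. The placement was first found from such family levels, so they are not independent of it. Xist, an RNA that coats the silent X chromosome in females, had a mean of 4.61 as placed and 9.35 as deposited. The Y-linked genes Eif2s3y, Uty and Kdm5d had means of 8.85, 7.95 and 7.69 as placed, in mice that were male. As deposited these genes had 2.94, 3.83 and 8.57, so Kdm5d was lower as placed than as deposited. Every gene value below is a value of an inferred row.

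**Figure D1:**
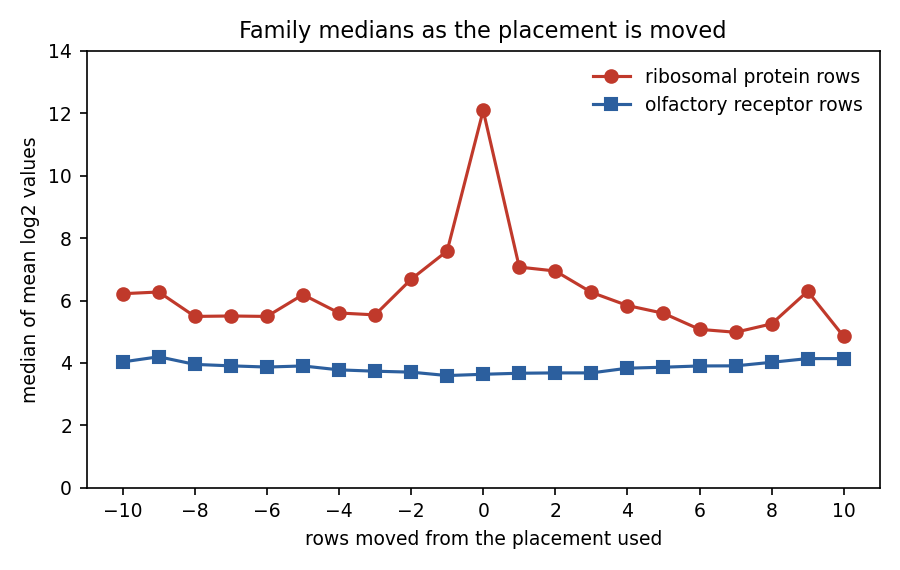
Median of the mean log2 values of 26 ribosomal protein rows (red) and 139 olfactory receptor rows (blue), against the number of rows by which the placement of the IDs was moved. The ribosomal median is 12.09 at the placement used and at most 7.59 elsewhere in the range shown. The receptor median is 3.64 at the placement used, 3.60 at a shift of -1 and 3.67 at a shift of 1, so it does not single out this placement.

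The sequence in front of Smad6 is shown because this gene, which encodes an inhibitory Smad, varied most between arrays among the 4, and that in front of Smad3, which encodes an effector Smad, is shown for contrast. Both are RefSeq sequences of build GRCm38.p6 from the minus strand of chromosome 9, written 5′ to 3′ from 250 bases before the gene's start to 30 bases after it. The bases shown for Smad6 lie at chr9:64022030-64022309 and those for Smad3 at chr9:63757965-63758244. Capitals mark the short Smad element GTCT, or AGAC, which is GTCT read 5′ to 3′ on the other strand.
Smad6: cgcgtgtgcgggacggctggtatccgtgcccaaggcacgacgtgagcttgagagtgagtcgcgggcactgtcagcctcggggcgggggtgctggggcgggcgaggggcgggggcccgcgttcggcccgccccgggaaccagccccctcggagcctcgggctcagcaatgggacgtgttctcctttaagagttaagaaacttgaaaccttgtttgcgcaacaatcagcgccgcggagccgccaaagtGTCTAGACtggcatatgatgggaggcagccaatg
Smad3: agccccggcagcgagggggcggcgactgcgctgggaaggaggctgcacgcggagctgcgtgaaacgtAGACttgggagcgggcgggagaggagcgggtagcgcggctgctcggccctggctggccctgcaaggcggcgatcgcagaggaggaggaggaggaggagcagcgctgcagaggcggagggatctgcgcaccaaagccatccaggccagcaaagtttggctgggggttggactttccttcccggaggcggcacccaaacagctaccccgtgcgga

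The full promoter windows searched ran from 250 bases before to 50 after the start. In Smad6 the capitals join into the palindrome GTCTAGAC, the element known to be bound by Smad3 and Smad4, with 4 bases before the start and 4 after it. This palindrome, which reads the same on both strands and holds GTCT on each, was in 70 of 32544 mouse promoter windows (0.215%), and in none of the windows of Smad3, Tgfbr2 and Acvr2b. The short element GTCT was in 88.0% of windows, with a median of 2 matches, and Smad3, Tgfbr2 and Acvr2b held 1, 1 and 2. These matches describe letters, and binding was not measured.

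Array quality was examined before the groups were compared. The array medians lay between 5.96 and 6.05. Jam2+ replicate 1 and Jam2- replicate 6 resembled the other arrays least, with mean correlations across rows of 0.970 and 0.968, where the remaining 8 arrays had 0.976 to 0.980. Jam2 and the sort genes Kit, Slamf1, Cd48 and Ly6a were not on placed IDs and were not analysed here. Of 22 HSC markers 2 were placed, the adhesion genes Esam, with a mean of 8.23, and Jam3, with 6.25. Their joint mean was 6.97 to 7.35 on Jam2+ arrays and 7.21 to 7.46 on Jam2- arrays. For both genes the Jam2+ mean was the lower, by a difference of -0.17 for Esam and -0.25 for Jam3. Neither passed in limma over all rows (limma adjusted p = 0.99992 for each). In the neutrophil list, 5 of 19 markers were placed. Their joint mean was 5.09 to 5.20 on Jam2+ arrays and 5.28 to 6.99 on Jam2- arrays, highest on Jam2- replicates 5 (6.99) and 2 (6.48). Jam2+ minus Jam2- was -1.72 for Camp, -1.56 for Ngp, -0.77 for Ltf, -0.20 for Cybb and -0.13 for Mmp8. None of these 5 passed in limma over all rows (limma adjusted p = 0.99992 for each). Of the 5, 4 had a mean above fewer than 95% of the olfactory receptor rows. Among the other placed markers the joint means overlapped between the groups for 5 of 13 T cell, 2 of 12 macrophage, 2 of 16 erythroid, 4 of 16 stromal and endothelial, and 1 of 10 B cell genes. Whether neutrophil RNA plays a part in the values of the 4 genes was not tested. In sorted populations, fewer cells of a type and less RNA per cell cannot be told apart.

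Setting Jam2+ against Jam2- HSCs asks whether stem cells divided by this surface protein differ in the RNA of these 4 receptors and Smads. No type I receptor was among the placed pathway genes. Protein, Smad phosphorylation and the response to TGF-beta or activin were not measured on these arrays. None of the 4 genes differed in limma at an adjusted p of 0.05 over all 41345 rows, and their differences, Jam2+ minus Jam2-, lay between -0.026 and 0.068 on the log2 scale. For all 4 genes the values of the groups overlapped. Of all rows, 0% passed that threshold, and the count at an unadjusted p below 0.05 was 0 of the 4 genes, against 115 of the 2721 placed genes (4.23%). Groups did not overlap for 27 of the placed genes (0.992%). A p that misses the threshold does not show equal levels, so the 95% intervals are given with each gene. The exact two-sided permutation test below runs over all 252 assignments of 5 arrays against 5 and cannot give a p below 0.00794.

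**Figure D2:**
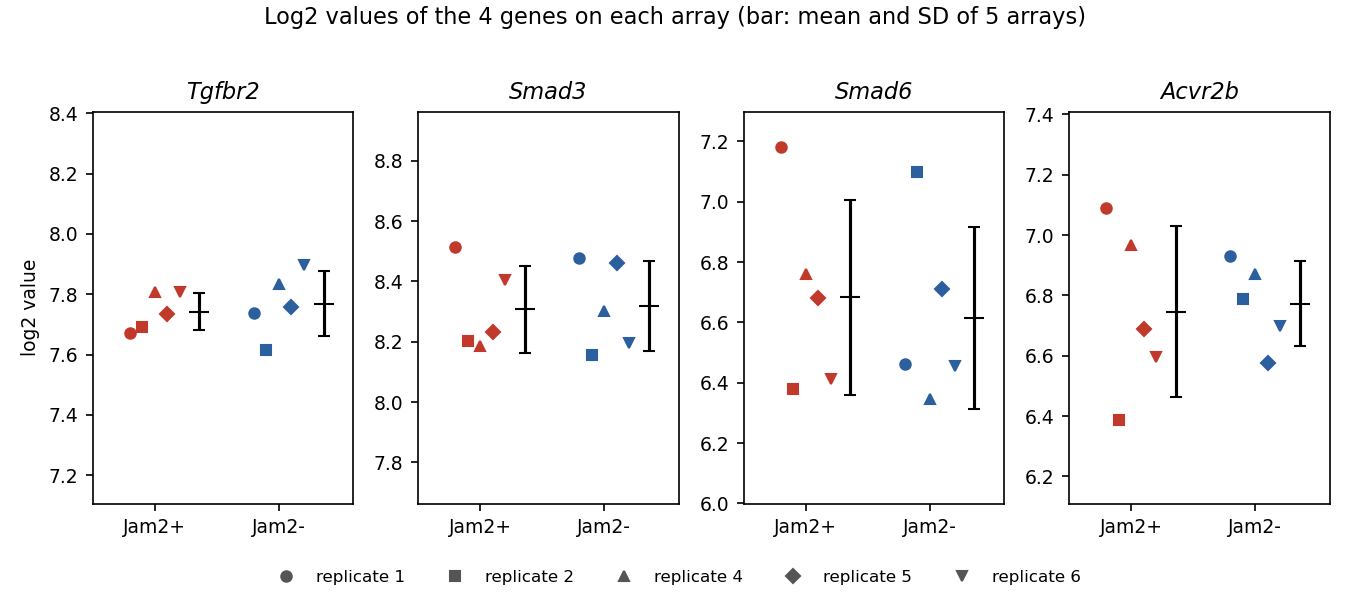
Log2 values of Tgfbr2, Smad3, Smad6 and Acvr2b on each of the 10 arrays, by group; symbols give the replicate number, and black bars the mean and SD of 5 arrays. All panels span the same number of log2 units, and the groups overlap in each, with Tgfbr2 the tightest (range 0.28) and Smad6 the widest (range 0.83).

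Tgfbr2 encodes the type II receptor that binds TGF-beta itself and without which cells do not respond to it. Its log2 values in Jam2+ HSCs were 7.67, 7.69, 7.81, 7.74 and 7.81 on replicates 1, 2, 4, 5 and 6. In Jam2- HSCs they were 7.74, 7.62, 7.84, 7.76 and 7.90. The highest and the lowest of the 10 values were both in Jam2- HSCs, and the Jam2+ values lay inside that range. The means were 7.74 ± 0.06 (SD, n = 5) and 7.77 ± 0.11 (SD, n = 5), which differed by -0.026 ± 0.074 (standard error; limma adjusted p = 0.99992; exact permutation p = 0.643). The 95% interval ran from -0.19 to 0.14, or 0.877-fold to 1.10-fold, the narrowest of the 4.

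Acvr2b encodes a type II receptor for activins and several related ligands, among them myostatin and GDF11. Its log2 values in Jam2+ HSCs were 7.09, 6.39, 6.97, 6.69 and 6.59 on replicates 1, 2, 4, 5 and 6. In Jam2- HSCs they were 6.93, 6.79, 6.87, 6.58 and 6.70. Here the Jam2- values lay inside the range of the Jam2+ values, which held both the highest array, replicate 1, and the lowest, replicate 2. The SD was 0.28 in Jam2+ and 0.14 in Jam2- HSCs. The means were 6.75 and 6.77, which differed by -0.026 ± 0.135 (standard error; limma adjusted p = 0.99992; exact permutation p = 0.857). The 95% interval ran from -0.32 to 0.27, or 0.798-fold to 1.21-fold. With Jam2+ replicate 1 left out the difference was -0.11, and with Jam2+ replicate 2 left out it was 0.063, so single arrays set its sign.

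Smad3 encodes the receptor-regulated Smad that carries TGF-beta and activin signals into the nucleus. Its log2 values in Jam2+ HSCs were 8.51, 8.20, 8.19, 8.23 and 8.40 on replicates 1, 2, 4, 5 and 6. In Jam2- HSCs they were 8.48, 8.16, 8.30, 8.46 and 8.20. The groups covered nearly the same range, and replicate 1 was the highest array of both. The means were 8.31 ± 0.14 (SD, n = 5) and 8.32 ± 0.15 (SD, n = 5). The difference of -0.011 ± 0.098 (standard error) was the smallest of the 4 in size (limma adjusted p = 0.99992; exact permutation p = 0.889). Its 95% interval ran from -0.23 to 0.21, or 0.855-fold to 1.15-fold.

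Smad6 encodes an inhibitory Smad, which acts mainly on the signals of bone morphogenetic proteins (BMPs). Its log2 values in Jam2+ HSCs were 7.18, 6.38, 6.76, 6.68 and 6.41 on replicates 1, 2, 4, 5 and 6. In Jam2- HSCs they were 6.46, 7.10, 6.35, 6.71 and 6.46. Each group held 1 array above 7, Jam2+ replicate 1 and Jam2- replicate 2, and the other 8 arrays lay at or below 6.76. The means were 6.68 ± 0.32 (SD, n = 5) and 6.62 ± 0.30 (SD, n = 5), which differed by 0.068 ± 0.181 (standard error; limma adjusted p = 0.99992; exact permutation p = 0.714). The 95% interval ran from -0.33 to 0.47, or 0.795-fold to 1.38-fold, the widest of the 4. Without Jam2+ replicate 1 the difference was -0.057, and without Jam2- replicate 2 it was 0.19.

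Without both arrays that stood apart, a choice made after seeing the data, the differences were 0.024 for Tgfbr2, -0.13 for Acvr2b, -0.092 for Smad3 and -0.097 for Smad6. The limma adjusted p was 0.909 to 0.975 for these values. The signs of Tgfbr2 and Smad6 thus turned with those arrays left out, within the intervals given above.

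The 4 genes were unlike in how much they varied between arrays within a group. The pooled SD within groups was 0.088 for Tgfbr2, 0.146 for Smad3, 0.224 for Acvr2b and 0.313 for Smad6. For Tgfbr2, 1.06% of the 379 placed genes with a mean within 0.5 of its own had a smaller SD. The same share was 29.1% of 323 genes for Smad3, 64.7% of 416 for Acvr2b and 87.8% of 426 for Smad6. Tgfbr2 was thus among the steadiest rows of its brightness, and Smad6 among the more variable. The median SD of all placed genes was 0.171.

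**Figure D3:**
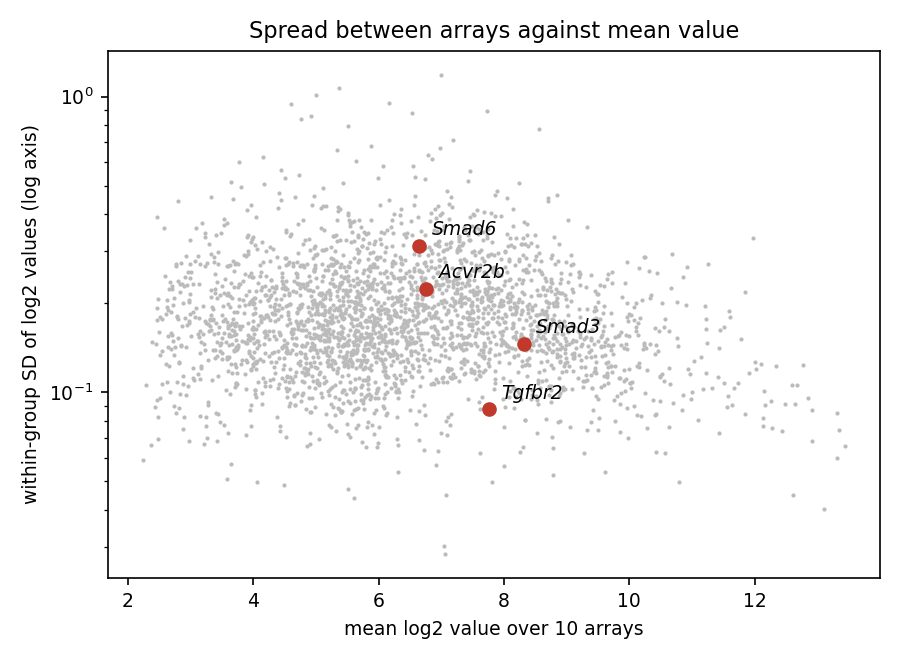
Within-group SD of log2 values over the 10 arrays (log axis) against the mean log2 value for the 2721 placed genes (grey) and the 4 genes described (red). Tgfbr2, with an SD of 0.088, lies near the lower edge of the cloud at its mean, and Smad6, with 0.313, in its upper part.

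Signal over background was judged against the olfactory receptor rows, with the reserve that probes of different genes differ in brightness at equal RNA. The means of Tgfbr2 and Smad3 lay above all 139 receptor rows, the brightest of which had 7.69. Acvr2b lay above 138 of them and Smad6 above 136, so the brightest receptor rows exceeded both.

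Deviations from the group means over the 10 arrays were compared between the 4 genes as a description, since arrays from 5 mice may share animals. Pearson's r was 0.52 between Smad6 and Acvr2b, both high on Jam2+ replicate 1, an array that stood apart, and low on Jam2+ replicate 2. In Jam2- HSCs the 2 genes did not run together. Replicate 2 had the highest Smad6 value there (7.10) with 6.79 for Acvr2b, near its group mean of 6.77. Jam2- replicate 1 had the highest Acvr2b value (6.93) with 6.46 for Smad6, below its group mean of 6.62. Pearson's r was -0.64 between Tgfbr2 and Smad6. Jam2- replicate 2 had the lowest Tgfbr2 value of that group and its highest Smad6 value. For the pairs that remain it lay between -0.08 and 0.28.

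The genes whose deviations ran most like those of each of the 4 were sought among the placed genes with a mean above the median, again over 10 arrays. Tgfbr2 was followed most closely by Epm2aip1 (r = 0.935) and 4931406C07Rik (r = 0.882). Smad3 was followed by Got2, the mitochondrial aspartate aminotransferase (r = 0.933), and 5730409K12Rik (r = 0.918). Smad6 was followed by Siah1a, a ubiquitin ligase (r = 0.888), and Apln, the peptide ligand apelin (r = 0.836). Acvr2b was followed by Pcsk7, a proprotein convertase (r = 0.908), and Nktr (r = 0.887). Over 1360 such genes the highest r of a gene with any other had a median of 0.911, with 0.838 and 0.962 as the 5th and 95th percentiles. The closest match of each of the 4 lay between those percentiles.

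Other genes of the pathway were taken from a list of 245 genes that includes the 4, of which 38 were placed, on IDs that stand mostly for chromosomes 9, X and 8. None of the 38 passed in limma over all rows. At an unadjusted p below 0.05 there was 1 of 38 (2.63%), against 4.23% of all placed genes, and 0 of 38 had groups that did not overlap, against 0.992%. The differences lay above 0 for 19 and below 0 for 19, with a median of 0.0026, where the median of all placed genes was 0.0068.

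Among ligands, Bmp5 and Bmp15, of the BMP family, were 2 of 34 listed genes with a placed row. Bmp5 had 4.34 ± 0.20 in Jam2+ HSCs and 4.28 ± 0.16 in their Jam2- counterparts (SD, n = 5 each), and 101 of the 139 olfactory receptor rows lay below it. Bmp15 had 5.43 in both groups, above 126 receptor rows.

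Extracellular regulators had 4 of 37 listed genes placed, and 0 passed. Bgn encodes biglycan, a matrix proteoglycan that binds TGF-beta. Its log2 value was 10.05 ± 0.19 in Jam2+ HSCs and 9.86 ± 0.21 in their Jam2- counterparts (SD, n = 5 each), a difference of 0.19 (limma adjusted p = 0.99992). Chrdl1 and Bmper, which bind BMPs, and Cilp, a cartilage protein that binds TGF-beta, differed by 0.049, -0.053 and 0.11. These 3 rows had means of 4.81, 5.44 and 4.94, above 116, 126 and 119 of the 139 receptor rows.

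Besides Tgfbr2 and Acvr2b, the receptor list of 21 genes had 2 placed rows. Neo1 encodes neogenin, a receptor for netrins and repulsive guidance molecules that also takes part in BMP signalling. It had 7.58 ± 0.16 in Jam2+ HSCs and 7.34 ± 0.20 in their Jam2- counterparts (SD, n = 5 each). The difference of 0.24 was the largest among the 38 genes and had a 95% interval of -0.013 to 0.50 (limma adjusted p = 0.99992). Tdgf1, the co-receptor Cripto for Nodal, had 5.04 in Jam2+ and 5.05 in Jam2- HSCs, above 122 of the 139 olfactory receptor rows. Of 8 Smad genes, Smad3 and Smad6 were the 2 placed.

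Intracellular regulators had 11 of 51 listed genes placed, 7 with a difference above 0 and 4 below. Pias1, a SUMO ligase that acts on Smads and other transcription factors, was the gene with an unadjusted p below 0.05. It had 9.50 ± 0.19 in Jam2+ HSCs and 9.26 ± 0.10 in their Jam2- counterparts (SD, n = 5 each), a difference of 0.24, and did not pass (limma adjusted p = 0.99992). Usp9x, a deubiquitinase of Smad4, differed by -0.20, and Usp11, another deubiquitinase, by -0.12 (limma adjusted p = 0.99992 for both). Xiap and the phosphatase gene Ppm1a differed by 0.093 and 0.091, and the phosphatase subunit gene Ppp2r1b by -0.076.

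Transcriptional co-factors had 5 of 30 listed genes placed, with differences from -0.057 for Sin3a and Cited1 to 0.14 for Tfe3, and Zfp423 and Yap1 between them. Sin3a, a scaffold of histone deacetylase complexes, had a mean of 8.98, above all receptor rows. Of 25 effectors that act beside the Smads, Map2k1, Rhoa and Tab3 were placed. Map2k1, a kinase of the ERK cascade, differed by -0.20 (limma adjusted p = 0.99992). Rhoa and Tab3, an adaptor of the kinase TAK1, differed by -0.054 and 0.082.

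Genes known as targets of TGF-beta or BMP signals had 7 of 40 listed members placed, 2 with a difference above 0 and 5 below, and 0 passed. Junb, an AP-1 transcription factor, had 11.65 ± 0.13 in Jam2+ HSCs and 11.69 ± 0.07 in their Jam2- counterparts (SD, n = 5 each). Cish, an inhibitor of cytokine signalling, had 9.28 and 9.17, and Tsc22d3 had 7.23 and 7.39. Irs4, an adaptor of insulin and cytokine receptors, differed by 0.12, with a mean of 5.00 that lay above 122 of the 139 olfactory receptor rows. Timp1, an inhibitor of matrix metalloproteinases, and Col1a2, a collagen chain, had means of 4.53 and 4.70, above 105 and 113 of the 139 receptor rows.

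**Figure D4:**
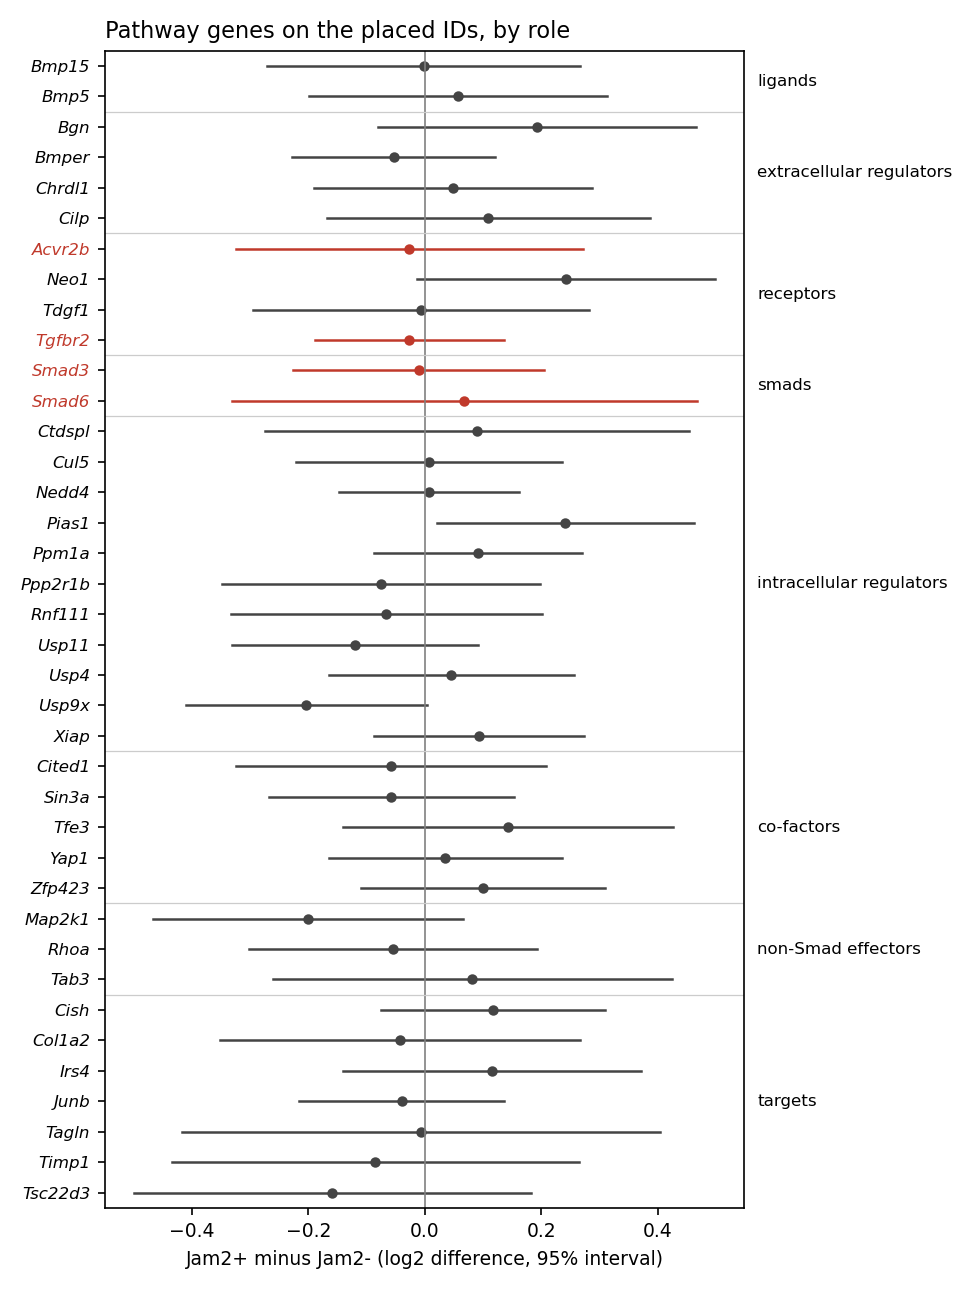
Difference in log2 value between Jam2+ and Jam2- HSCs for the 38 placed pathway genes, by role, with the 95% interval of limma; the 4 genes described are in red. Points lie between -0.20 and 0.24, and the interval of Pias1 is the one that does not cross 0, before adjustment.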

How the data were processed

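Log2 expression values of 10 Affymetrix arrays, 5 a group, were taken from the deposited table. Per the submitters' processing notes the R package oligo was used; how background and normalization were handled is not stated. Scale and common centring were read from the values. Placed IDs were named through the platform annotation; among 2872 carrying 1 symbol, 2815 matched a gene of the RefSeq table (GRCm38.p6) by Entrez identifier. The brightest row stood for a gene, and no filter on dim rows was used.

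Groups were compared with limma (lmFit, eBayes) on all 41345 rows, with Benjamini-Hochberg adjustment at 0.05. The procedure was tested on simulated data with independent arrays and planted differences far larger than those of the 4 genes. Differences of their size were not simulated. Arrays give no depth, and their number limits the precision. The genes, the lists and the tests were chosen with earlier results of these data known. Named were the 4 genes, the placed pathway genes by role (the 6 with the smallest p where a role had more), with values for up to 26, and the 2 genes most like each of the 4. Alternatives were a replicate block, leaving out arrays singly, weighting arrays, other variance models, rescalings, fewer rows, another gene summary and, added later, arrays and IDs treated as described. The software was limma 3.58.1 in R 4.3.3, with pandas 2.3.3, scipy 1.17.1, matplotlib 3.10.9 and numpy 2.4.6 in Python 3.11.15.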

Additional observations from a re-analysis of the deposited data

Results flagged for a closer look

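Within groups of 5 arrays, 6 of 66 groups of values examined held an array far from the others, where chance gives about 3.3. None of the 4 genes Tgfbr2, Acvr2b, Smad3 and Smad6 was among them. Cilp had 4.62 on Jam2+ replicate 1, against 5.04 on the nearest array of its group. Timp1 had 4.91 on Jam2+ replicate 6, against 4.44, and 5.09 on Jam2- replicate 1, against 4.51. Usp9x had 9.62 on Jam2- replicate 1, against 9.43. Xiap had 7.14 on Jam2+ replicate 6, against 6.98. Jam2- replicate 6 correlated with the other arrays at a mean of 0.968, while the next lowest Jam2- array had 0.977.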

How the results depend on the processing

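Of 20 alternatives on the placed rows, none brought Tgfbr2, Acvr2b, Smad3 or Smad6 past the threshold, and their limma adjusted p ran from 0.909 to 0.99999. With 1 array left out the differences ran from -0.065 to 0.0061 for Tgfbr2, -0.11 to 0.063 for Acvr2b, -0.062 to 0.029 for Smad3 and -0.057 to 0.19 for Smad6, so the sign turned for each. Quantile normalization gave 0.0034 for Smad3. Without both arrays that stood apart, Tgfbr2 gave 0.024 and Smad6 -0.097; fewer arrays were used there, and the cause was not tested. With IDs left where they were deposited, other rows were read, and the differences were 0.047 for Tgfbr2, -0.16 for Acvr2b, 0.11 for Smad3 and 0.079 for Smad6. The count of rows past the threshold was 0 to 1 with 1 array left out, the 1 without Jam2+ replicate 6, and 0 under the other alternatives; that of pathway genes was 0 throughout. With the replicate number as a block, the differences were the same and the adjusted p was 0.997 for Tgfbr2, Acvr2b and Smad6 and 0.999 for Smad3, with 0 rows past the threshold. The arrays were not treated as pairs in the main fit, since no label states a pairing. Deviations of same-numbered arrays correlated at -0.020 to 0.114. For Jam2+ replicates 1 and 6 and Jam2- replicates 1 and 5, the closest array of the other group had the same number. For the remaining arrays it did not. Neither observation shows whether same-numbered arrays share animals. An unadjusted p below 0.05 was reached by 0 to 3 of the 38 pathway genes.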
